A study of Mus musculus with 15 samples.

Results

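The clustered protocadherins of the beta and gamma families are 44 genes that lie side by side on mouse chromosome 18, and they were followed here as a fixed set of symbols. All 44 were found among the 46517 genes counted in 6 RNA-seq samples, as 22 beta, 12 gamma A, 7 gamma B and 3 gamma C genes. DNA methylation was read over chr18:37200000-37900000 (GRCm38), where 341 of 360390 cytosine positions with 10 or more calls in all 9 bisulfite samples lay. The members were set by family and by place, and this set was chosen with earlier results of these data known.

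Clustered protocadherins are cadherin-like adhesion proteins of the cell surface, best known from neurons, where each cell transcribes its own small selection of them and uses that selection to tell its own branches from those of other cells. Each beta gene is a single exon with its own promoter. Each gamma gene has its own first exon and promoter, spliced to constant exons that the whole gamma family shares. DNA methylation of these promoters is known to go with their silence, and the factor CTCF with their choice, in neurons and in early embryos. The C-type genes at the end of the gamma cluster are known to be regulated apart from the others.

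The study asked what loss of DNMT1, the enzyme that copies DNA methylation onto new strands at replication, does in the mouse kidney. Controls were Dnmt1 f/f mice at postnatal day 0 (P0), and knockouts (KO) were Six2Cre Dnmt1 f/f mice at P0, both of strain C57BL/6. Both groups therefore carry the floxed alleles, and the KO alone carries Cre. Wild-type C57BL/6 kidneys of 6 weeks served as adults, for methylation only. Each group had 3 samples, with 9 samples for reduced representation bisulfite sequencing (RRBS), which reads methylation in CpG-rich fragments, and 6 for RNA-seq.

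Six2 drives Cre in nephron progenitors, so stroma, vessels and other cells outside that lineage keep Dnmt1. The labels name Six2-positive cells as the source, whereas the extraction protocol names the entire kidney for DNA. Markers of many cell types were present in the RNA, among them the endothelial gene Cdh5 at 176.9 CPM (counts scaled to a common library total) and the podocyte gene Podxl at 456.1 CPM in controls, so the samples are described as kidney. In such bulk samples fewer cells of a type and less RNA per cell cannot be told apart. No label states that replicates came from separate animals, so p-values measure the spread between these samples, which may be technical.

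Depth and composition differed between libraries. RNA totals ran from 26773937 to 34102567 counts in genes. RRBS calls within the region ran from 11753 in KO 3 to 65479 in control 2. Dnmt1 itself had 5908, 4826 and 6921 counts in controls and 3526, 3378 and 2467 in KO, a log2 fold change of -0.74 with an adjusted p of 0.00577 in edgeR's quasi-likelihood test, and every KO sample was below every control. Control 3 was the lowest of the 6 RNA samples for 22 of the 44 members. Its summed CPM of 5 proximal tubule markers was 3579.6 against 1141.7 in the lowest control, and the part of this in the results below was not tested.

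In KO kidneys edgeR called 4 of 42 tested protocadherins higher than in controls, at an adjusted p under 0.05, and 0 lower. Among all 18132 genes tested, 6.36% were called higher and 8.23% lower. The share of members called higher was not far above this. Their number ran from 1 to 6 when 1 sample was left out. The 4 were Pcdhb2, Pcdhb3, Pcdhb14 and Pcdhga2, each an adhesion protein of the cell surface. At an unadjusted p under 0.05, 14 members were higher, against 13.0% of all genes, and 0 were lower, against 15.0%. DESeq2 and limma voom also called 0 members lower. The log2 fold change was positive for 39 of the 42, against 49.9% of all genes tested, and its median was 0.50 against 0.00 (-0.00074) over all genes.

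Pcdhb2 (ENSMUSG00000051599.4, 18:37294840-37297614) differed most. Its counts were 21, 21 and 15 in controls and 96, 60 and 58 in KO. The KO samples were all far above the controls, and the groups did not overlap. Scaled to the library total this was 0.561 ± 0.103 CPM for controls against 2.42 ± 0.546 CPM for KO (SD, n = 3 each), with a log2 fold change of 2.05 with a standard error of 0.34 and an edgeR adjusted p of 0.00522. Pcdhb2 was a low gene in controls, with at most 21 counts in each.

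Pcdhb3 (18:37300799-37304585), the next gene along, had 72, 58 and 38 counts in controls and 138, 106 and 120 in KO. Control 3 was the lowest sample, and the groups did not overlap. The log2 fold change was 1.27 with a standard error of 0.33 and an edgeR adjusted p of 0.0353. Pcdhb14 (18:37447657-37451094) had 159, 183 and 99 counts in controls and 312, 254 and 265 in KO. All KO samples were above all controls, with control 3 again lowest. Its log2 fold change was 1.06 with a standard error of 0.30 and an edgeR adjusted p of 0.0475.

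Pcdhga2 (18:37668927-37841870) was the one gamma gene that edgeR called. It had 72, 62 and 67 counts in controls, which lay close together, and 173, 90 and 113 in KO, where KO 1 was highest. The groups did not overlap, and the log2 fold change was 1.07 with a standard error of 0.29 and an edgeR adjusted p of 0.0431. A gamma gene shares its constant exons with 21 others, and how reads on shared exons were assigned is not given in the sources used here, so values of gamma members are uncertain to that extent.

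The calls beyond Pcdhb2 rested on few libraries. Pcdhb2 was called in all 13 fits tried, and the other 3 lost the call in some of them. The number called higher was 1 without KO 1 (Pcdhb2 alone), 2 without KO 2, 1 without KO 3, 2 without control 1, 3 without control 2 and 6 without control 3. Without control 3, the sample lowest for 22 members, 31 of 43 members tested had a positive log2 fold change, against 50.7% of all genes.

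**Figure D1:**
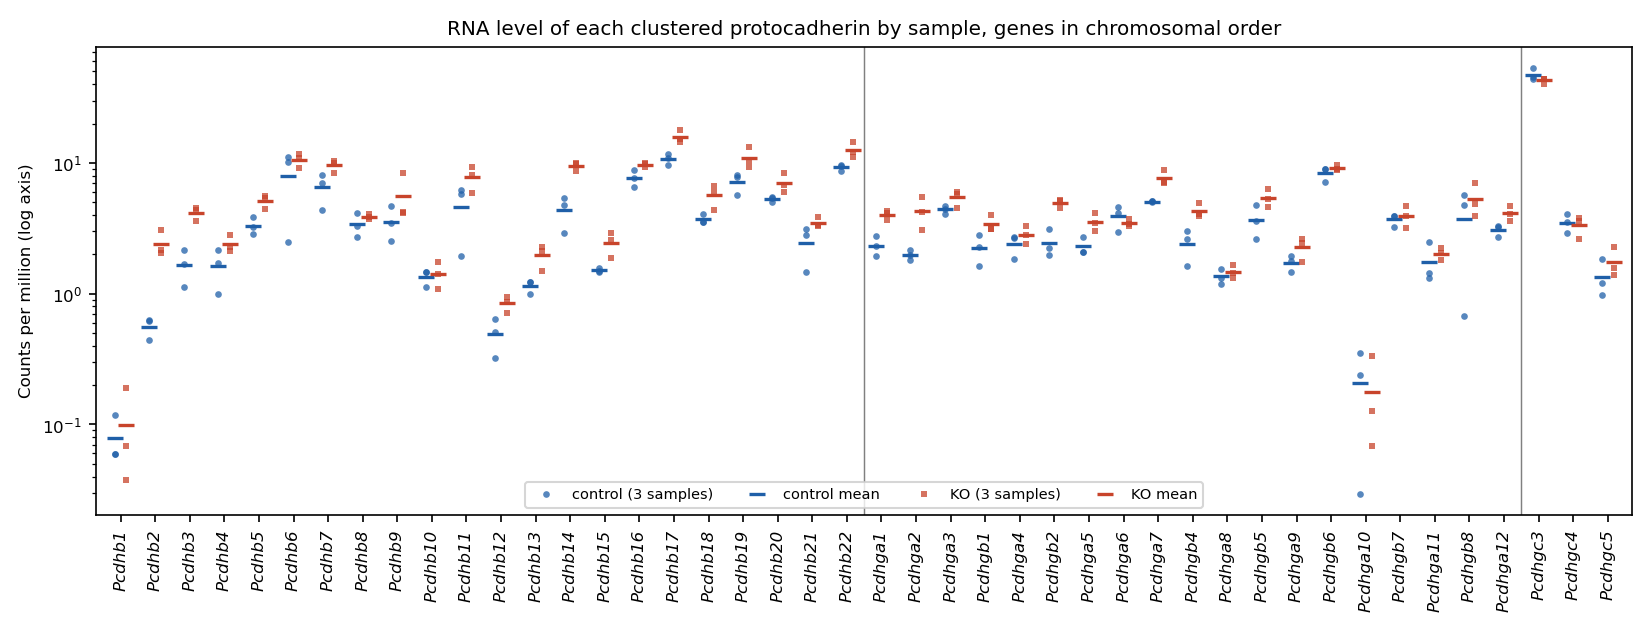
Level of each of the 44 members in every RNA sample, in CPM on a log axis and not corrected for gene length, with genes in chromosomal order and vertical lines between the beta, gamma A and B, and gamma C genes. Pcdhgc3 has the most counts of all members in both groups, and the 3 KO samples of Pcdhb2 (60, 58 and 96 counts) sit above its 3 controls.

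Across the beta genes, 22 of 22 had a positive log2 fold change when no filter on low counts was set, and 3 of 21 tested were called. Every KO sample lay above every control for 15 of 22. Among all genes tested this held for 17.4%, and the reverse order for 14.6%. Of all 44 members it held for 23 and the reverse for 0. Without control 3 the counts were 26 and 2, while the share of all genes rose to 34.7% above and 19% below. Log2 fold changes of the 21 ran from 0.03 (Pcdhb10, 0.025) to 2.05. The beta genes summed to 92.8, 97.5 and 74.7 CPM in controls and 143.2, 126.7 and 128.7 CPM in KO, which did not overlap, with means of 88.3 ± 12.04 and 132.9 ± 9.03 CPM (SD, n = 3 each), a ratio of 1.505. A sum over members received no test.

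Pcdhb17 (18:37485021-37488290) had the most counts of the beta genes in controls. Its counts were 323, 369 and 397 in controls and 563, 425 and 409 in KO. The groups did not overlap. The log2 fold change was 0.53 with an edgeR adjusted p of 0.0735, short of the threshold. Pcdhb1, at the start of the cluster, had 1 to 6 counts in every sample and was not tested.

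Of 11 gamma A genes tested edgeR called 1, and of 7 gamma B genes 0, with 2 gamma B genes higher at an unadjusted p under 0.05. DESeq2 called 3 gamma A genes (Pcdhga1, Pcdhga2 and Pcdhga7) and the gamma B gene Pcdhgb2, and limma voom called Pcdhgb2 alone among gamma genes. Every KO sample lay above every control for 5 of 12 gamma A and 3 of 7 gamma B genes, and none lay wholly below. Gamma A summed to 30.5 ± 2.12 CPM in the control samples, against 41.3 ± 3.63 CPM in KO, a ratio of 1.35, and gamma B to 26.5 ± 4.99 and 36.5 ± 1.14 CPM, a ratio of 1.37 (SD, n = 3 each). Pcdhga7, the gamma A gene with the highest counts in controls, had 172, 174 and 169 counts there and 279, 207 and 191 in KO, with no overlap, a log2 fold change of 0.56 and an edgeR adjusted p of 0.116. Pcdhgb6, its counterpart among gamma B genes, had 302, 243 and 307 counts in controls and 305, 261 and 241 in KO. Those groups overlapped throughout, with a log2 fold change of 0.10 and an edgeR adjusted p of 0.775. Pcdhga10 had 1 to 12 counts and was not tested.

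Among the members that passed the filter, only Pcdhga6 (-0.23), Pcdhgc3 (-0.19) and Pcdhgc4 (-0.12) had a negative log2 fold change, and none of these was called.

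**Figure D2:**
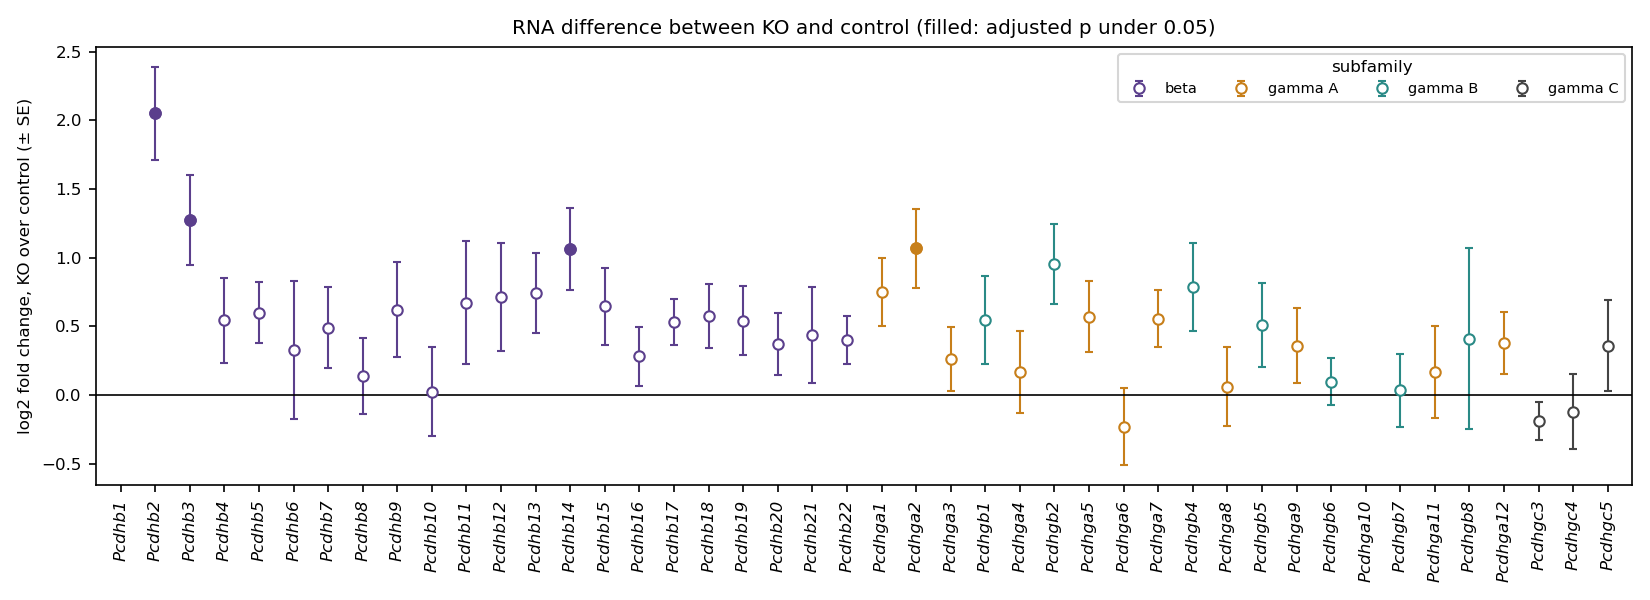
Log2 fold change of each tested member, KO over control, with its standard error, coloured by subfamily and filled where the adjusted p was under 0.05. Most points lie above 0, Pcdhb2 is highest at 2.05, and of the gamma C genes at the right Pcdhgc3 and Pcdhgc4 lie just below 0 and Pcdhgc5 at 0.36.

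Of the gamma C genes, which close the cluster, none of the 3 was called, and in none did the groups separate. Pcdhgc3 (18:37806410-37841873) was the member with the most counts, with 1781, 1556 and 1477 counts in controls and 1264, 1298 and 1182 in KO. In CPM, which corrects for the totals, the groups overlapped, and the log2 fold change was -0.19 (95% interval -0.46 to 0.08) with an edgeR adjusted p of 0.435. Pcdhgc4 had 136, 120 and 99 counts in controls and 120, 105 and 70 in KO, with a log2 fold change of -0.12 and an edgeR adjusted p of 0.830. Pcdhgc5, the last gene of the cluster, had 33, 41 and 62 counts in controls and 72, 46 and 37 in KO, with a log2 fold change of 0.36 and an edgeR adjusted p of 0.546. The 3 genes summed to 52.2 ± 5.08 CPM in the 3 control samples and 47.9 ± 1.59 CPM in the 3 KO samples (mean ± SD), a ratio of 0.917. Whether this ratio differs from that of the other subfamilies was not tested.

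The make-up of the cluster's RNA differed between the groups. Pcdhgc3 made up 24.8%, 22.0% and 25.3% of the CPM of all 44 members in controls and 14.8%, 17.7% and 17.4% in KO. The beta genes made up 43.5%, 47.1% and 43.4% in controls and 52.7%, 50.7% and 50.7% in KO. Both shares were separated between the groups. These shares are set by levels of the same genes and are no further evidence beyond them.

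Some members had 1 control sample far below the other 2, and these were picked out after their values were seen. Pcdhb6 had 340 and 379 counts in controls 1 and 2 but 85 in control 3, against 286, 344 and 291 in KO. Pcdhb11 had 194 and 210 counts against 66 in control 3, and 187, 238 and 249 in KO. Pcdhgb8 had 160 and 193 counts against 23 in control 3, and 123, 206 and 131 in KO. In each case controls 1 and 2 lay within or next to the KO range, and control 3 lay apart from the other 5 samples. Taf7, a general transcription factor gene between the beta and gamma clusters, was likewise lowest in control 3, with 1385, 1478 and 691 counts in controls and 1166, 1111 and 1100 in KO. Slc25a2, a mitochondrial carrier gene beside it, had 3 to 9 counts and was not tested.

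Genes of related lists were read beside the members. The alpha cluster, which precedes the beta genes, had 13 of its 14 listed genes in the files, and none passed the filter on low counts. Of 12 non-clustered protocadherins, by edgeR, 4 were called higher and 2 lower. Pcdh20 had a log2 fold change of 2.22, Pcdh15 of 1.32, Pcdh7 of 0.82 and Pcdh19 of 0.73, while Pcdh17 was at -0.55 and Pcdh12, a vascular protocadherin, at -0.46. Of 12 CTCF and cohesin genes edgeR called 0, with 2 higher at an unadjusted p under 0.05, while DESeq2 called 1 and limma voom 2 higher. Of 12 tested silencers of the clusters, edgeR called 1 higher, the Polycomb gene Eed at 0.40, while DESeq2 called 2 and limma voom 5 higher. Of 19 intracellular partners, the receptor tyrosine kinase Ret was called higher at 0.92 and Cyfip2, a part of the WAVE actin complex, lower at -1.11. Of 17 tested neighbours, Cd14, a co-receptor of innate immunity, was called higher at 1.33 and Pcdh12 lower.

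Markers of some cell types differed between the groups, and those of others overlapped. By edgeR, all 5 proximal tubule markers and all 4 podocyte markers were called lower in KO, and 4 of 5 endothelial markers as well. The summed proximal tubule markers ran from 1141.7 to 3579.6 CPM in controls and from 263.1 to 308.0 CPM in KO. Of 10 nephron progenitor markers, Eya1 and Osr1 were called higher and Cited1 lower, and their sum ran from 633.6 to 679.9 CPM in controls and from 723.8 to 762.2 CPM in KO. Of 9 stromal markers, 3 were called higher, led by Foxd1 at 1.63. The stromal sum overlapped, from 3198.9 to 3867.3 CPM in controls and from 3421.2 to 3991.9 CPM in KO. Of 7 tested neuronal markers edgeR called 0, with 2 higher at an unadjusted p under 0.05 and 1 called higher by DESeq2 and by limma voom. The sum over the neuronal list of 27.3 to 36.3 CPM in controls and 45.1 to 48.4 CPM in KO did not overlap. Of 5 tested glial and 3 tested adrenal markers edgeR called 0, while limma voom called 1 higher in each list. Of 4 tested leukocyte markers edgeR called 1 higher. The glial, adrenal and leukocyte sums each overlapped between the groups. The part of cell make-up in the members' values was not tested.

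Methylation over the region was lower in KO than in controls, but by less than over the autosomes. The mean over 341 positions was 50.5%, 50.9% and 49.6% in controls, 42.3%, 38.9% and 41.3% in KO and 49.2%, 50.5% and 49.5% in adults. KO samples were all below the controls and the adults, which overlapped. The difference was -9.54 percentage points, against -13.35 over the 352174 autosomal positions outside it, where 26.3% of the control level was absent, against 18.9% in the region. Adults differed from P0 controls by -0.64 points, a mean over unlike stretches. Over the 69 positions of the beta array adults had 64.2%, 63.5% and 63.0%, below all controls, a difference of -4.25 points. Of 92 beta positions tested in adults, 72 were lower and 0 were called. Over the 12 positions past the gamma cluster the adult difference was 21.1 points.

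Stretches of the region differed in level and in difference. Over the 69 positions of the beta array the mean was 66.2%, 67.0% and 70.2% in controls and 53.9%, 50.2% and 54.1% in KO, a difference of -15.1 points with no overlap, or 22.3% of the control level. Of these 69, 18 lay in the first 3000 bases of Pcdhb1 and 13 in those of Pcdhb2, so the mean does not weigh the beta genes evenly. The 36 positions between the beta and gamma clusters, which hold no member, had 47.3%, 45.8% and 46.1% in controls and 34.6%, 31.6% and 36.4% in KO, a difference of -12.2 points or 26.3% of the control level. Those from 37643935 to 37644210, at one end of Taf7, had at most 8.7% in every control and KO sample. They had little to lose, so -12.2 points understates the difference at the methylated positions of this stretch. Over the 193 positions of the gamma A and B array it was 54.6%, 54.9% and 52.3% in controls and 47.2%, 43.2% and 44.8% in KO, a difference of -8.87 points. The 26 positions of the gamma C stretch, from 1000 bases before Pcdhgc3 to the end of the cluster, averaged 5.24%, 6.12% and 3.60% in controls, against 4.08%, 3.94% and 5.53% in KO, which overlapped. Of these, 24 had a control mean under 10%, and averaged 1.25%, 1.40% and 1.40% in controls and 0.932%, 0.927% and 3.07% in KO. The other 2 lie within Pcdhgc5 and averaged 53.1%, 62.7% and 29.99% in controls and 41.8%, 40.1% and 35% in KO, which also overlapped.

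**Figure D3:**
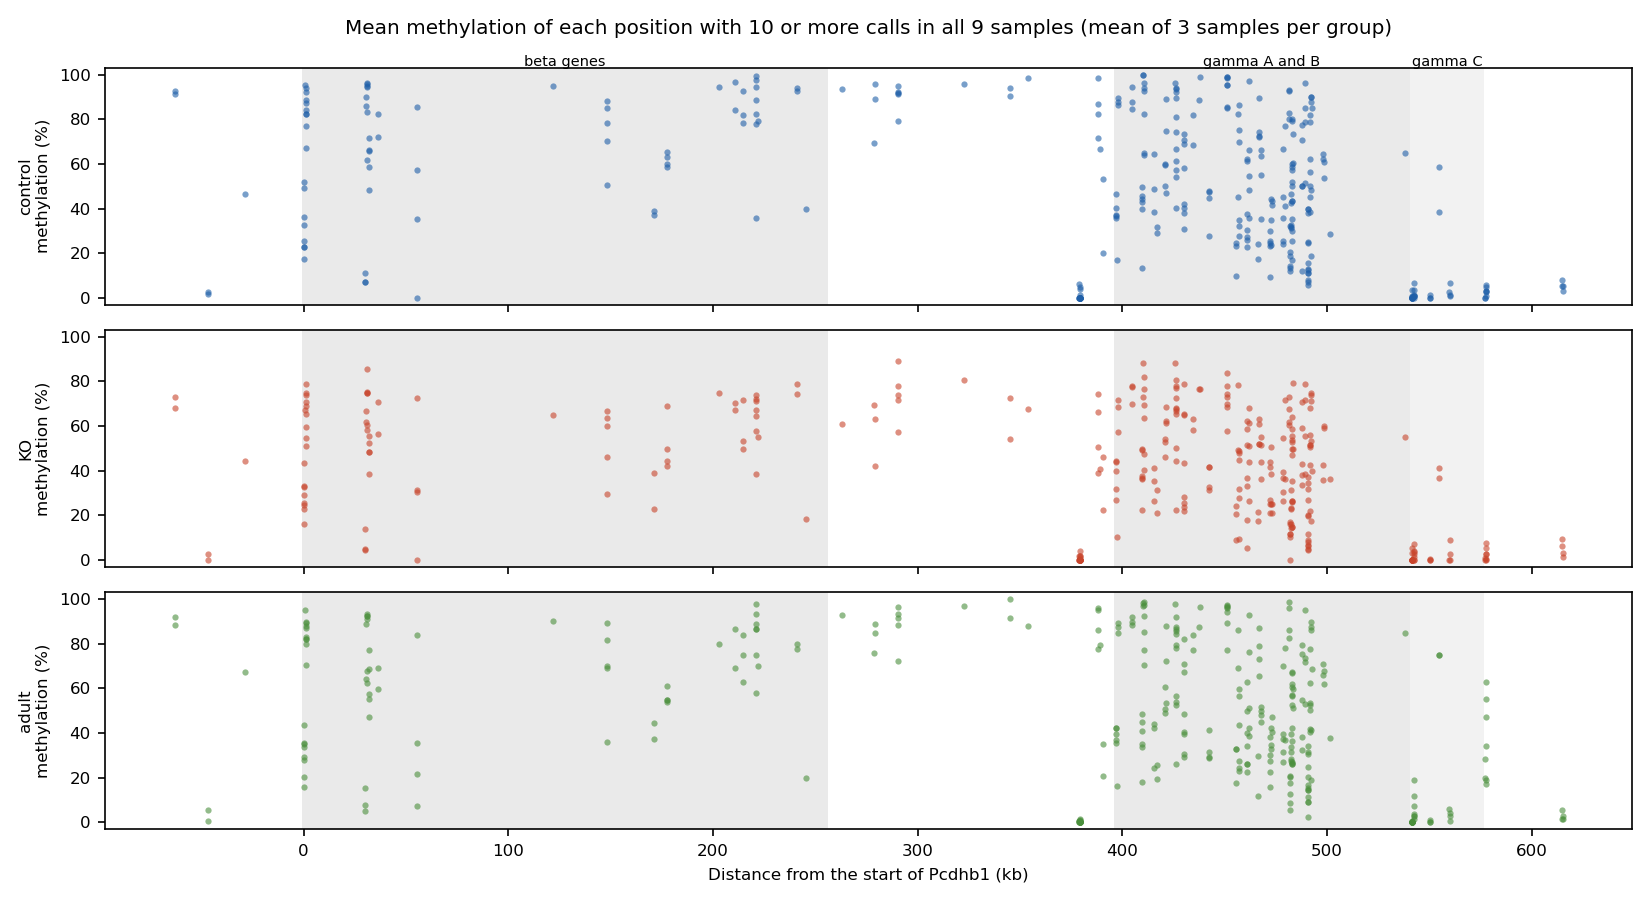
Methylation of each of 341 positions by distance from the start of Pcdhb1 in kb, each point the mean of 3 samples, for controls, KO and adults, with the beta, gamma A and B, and gamma C stretches shaded. The highest KO points lie below the highest control points over the beta and gamma A and B stretches, 24 of 26 gamma C positions lie under 10% in controls, and just past the end of that stretch adults alone are high.

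Positions of intermediate methylation were common in the region. A control mean of 30% to 70% was found at 34.9% of its positions, against 13.9% of autosomal positions outside. At these the KO difference was -7.99 points in the region and -13.5 outside, and at positions of 70% or more it was -19.9 and -24.4 points. No test was run on these differences between region and genome, and positions of 1 fragment share their reads.

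Single positions were tested next. Of 343 region positions tested, 76 were called lower in KO (adjusted p under 0.05 and at least 10 points) and 0 higher (0 also at an unadjusted p under 0.05 in the quasi-binomial fit, and 4 with no overdispersion), against 34.8% lower and 0.123% higher among all 380162 positions tested. With a control mean of 70% or more, 66 of 120 were called lower, against 65.6% of all such positions. With a control mean of 30% to 70%, 10 of 119 were called lower, against 22.3%. With a control mean of 10% to 30%, 0 of 42 were called, against 3.47%. With a control mean under 10%, a fall of 10 points is not possible, and 0 of 62 were called. By stretch, 24 of 70 beta positions, 13 of 37 positions between the beta and gamma clusters and 37 of 193 gamma A and B positions were called lower. Of 26 gamma C positions 0 were called lower, also 0 at an unadjusted p under 0.05. Of these 26, 24 had a control mean under 10%, so a lower call was not possible there. The lowest number of calls among the samples at a tested position had a median of 18 in the region and 16 over all positions.

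Around gene starts, 19 members had at least 3 positions within 1000 bases. These were 4 beta, 10 gamma A, 3 gamma B and 2 gamma C genes, so most beta starts were not tested. Of the 19, 2 were called lower, both beta genes. Of all 9227 starts tested, 6.88% were called lower and 0.0108% higher. These shares were not matched for control level, which had a median of 43.9% over the 19 members. At Pcdhb1 methylation was 68.8%, 66.8% and 68.9% in controls and 45.8%, 48.0% and 46.9% in KO over 11 positions with 371 to 1917 calls a sample. The groups were far apart, and the adjusted p was 0.000164 in the quasi-binomial fit, although Pcdhb1 had almost no RNA in either group. At Pcdhb2 it was 73.0%, 71.9% and 67.2% in controls and 61.0%, 44.9% and 47.5% in KO over 7 positions, with no overlap and an adjusted p of 0.0214. Over the same 7 positions adults had 60.4%, 55.9% and 57.1%, below all controls and within the KO range.

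Other starts differed less or varied more between replicates. At Pcdhga10, which had the most positions with 24, controls had 41.4%, 44.2% and 34.7% and KO 38.5%, 28.3% and 28.0%, which overlapped. Pcdhga11, with 18 positions, had 27.9%, 31.7% and 22.8% in controls and 25.6%, 24.8% and 27.0% in KO, also overlapping. At Pcdhga1 the 3 controls ranged from 23.8% to 47.2% and the KO samples from 22.5% to 42%. At Pcdhga9 KO 1 at 36.7% and KO 3 at 41.7% stood above all controls, the highest of which was 34.5%, and KO 2 was at 25.4%. The starts of Pcdhga3, Pcdhga5, Pcdhga8, Pcdhb5 and Pcdhgb5 were not called. Of these, Pcdhga5 and Pcdhgb5 had every KO sample below every control.

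The start of Pcdhgc3 was almost free of methylation in every sample, with 0.545%, 0.808% and 0.204% in controls and 0.669%, 0.692% and 1.17% in KO over 10 positions. The start of Pcdhgc4 gave 0% to 1.22% over 3 positions with 36 to 207 calls. Both genes had RNA levels whose groups overlapped.

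A wider window, the first 3000 bases from each start, which takes in a variable first exon, was added after seeing the data. It reached 25 members, and 8 were called lower, against 13.1% of all genes so tested (0.0113% higher). They were Pcdhb1, Pcdhb2, Pcdhb10, Pcdhb17, Pcdhga1, Pcdhga3, Pcdhga7 and Pcdhgb7. At Pcdhga7 methylation was 95.8%, 91.7% and 94.4% in controls and 80.2%, 75.6% and 62.2% in KO (adjusted p 0.000414 in the quasi-binomial fit). At Pcdhb17 it was 88.4%, 83.2% and 86.9% in controls and 64.4%, 64.9% and 61.5% in KO (adjusted p 0.000102). Both had groups that did not overlap, and both had RNA that was higher in every KO sample without passing the threshold in edgeR. DESeq2 called both, and limma voom Pcdhb17. Pcdhgb6, whose RNA overlapped, had 37.6%, 46.1% and 51.2% in controls and 45.8%, 51.6% and 31.5% in KO.

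**Figure D4:**
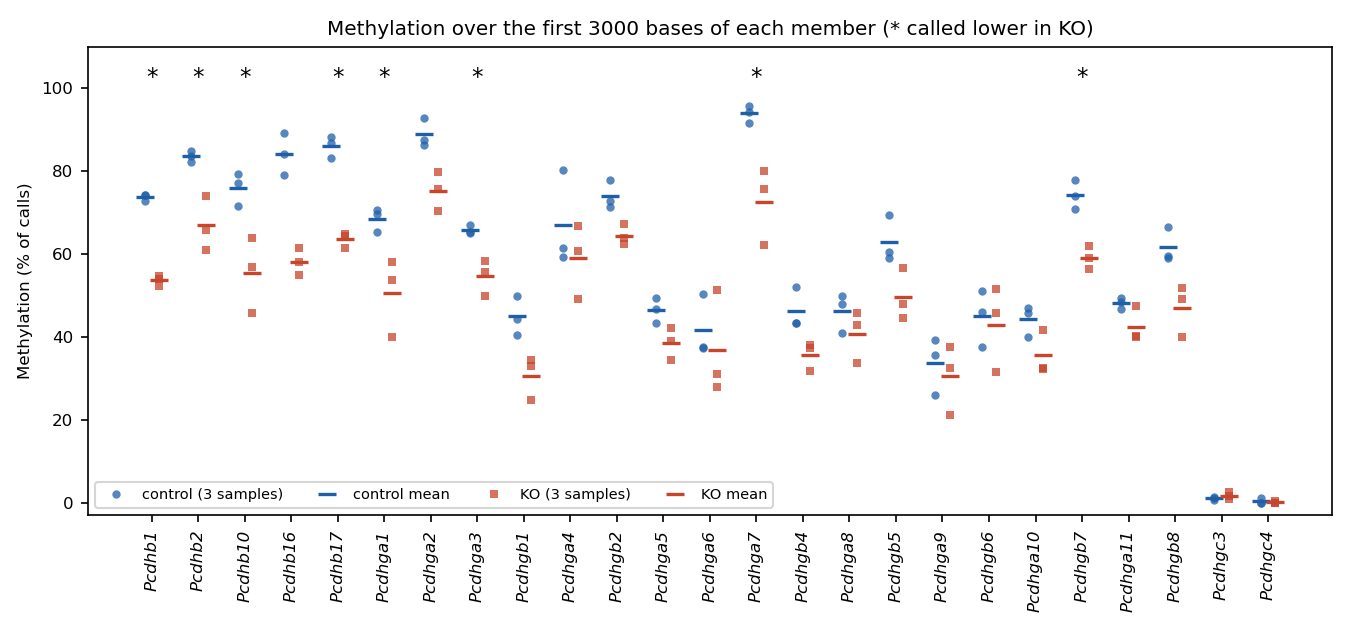
Methylation over the first 3000 bases of 25 members in each control and KO sample, in percent of calls, with group means as lines and a star where KO was called lower. The control means of starred members lie between 65.8% and 94.0%, and Pcdhgc3 and Pcdhgc4 at the right are near 0 in every sample.

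Methylation and RNA were set side by side for the members with both. For 23 members the methylation difference over the first 3000 bases and the log2 fold change had a Pearson r of -0.40 and a Spearman rho of -0.45, and for 17 members within 1000 bases of the start r was -0.65 and rho -0.59. Both sets hold Pcdhb2, and also Pcdhgc3 and Pcdhgc4, which had almost no methylation to lose. No coefficient was computed without these genes. RNA and methylation came from separate samples, and within each measure all genes share the same few samples, so no p is given. Pcdhb2, with a methylation difference of -16.7 points and a log2 fold change of 2.05, stood apart from members with a larger methylation difference such as Pcdhb16, at -26.1 points and 0.28. Pcdhb16 rested on 3 positions with 57 to 168 calls, and its methylation was not called. Of the other members called in RNA, Pcdhga2 was at -13.7 points and 1.07. Its methylation also rested on 3 positions, with 91 to 502 calls, and was not called, although every KO sample lay below every control. Pcdhb3 and Pcdhb14 had too few positions to be among the 23.

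**Figure D5:**
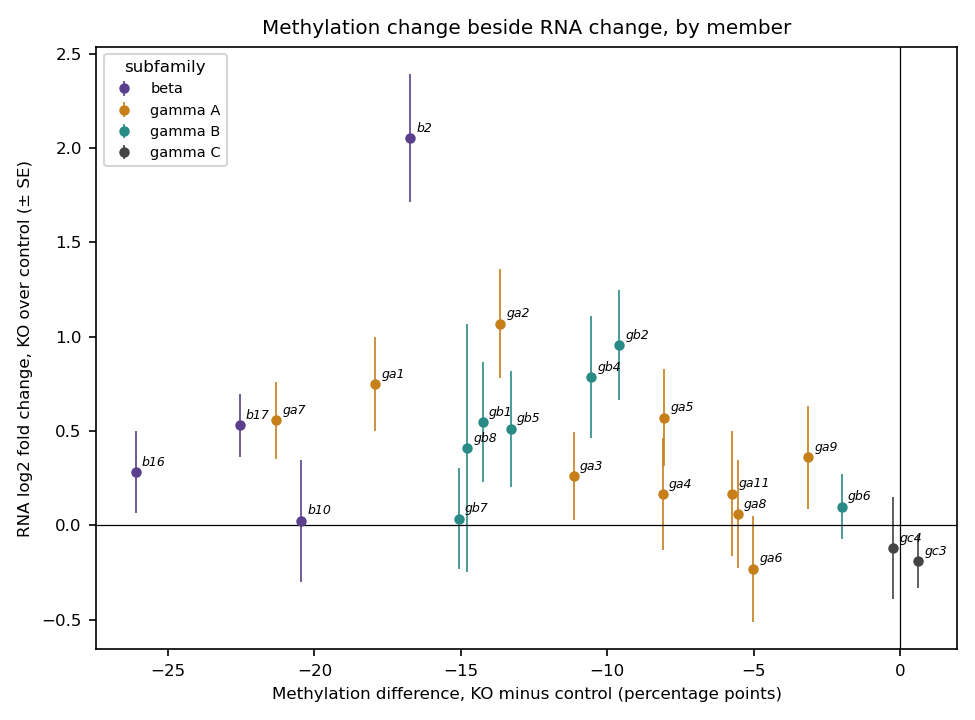
Methylation difference over the first 3000 bases, KO minus control in percentage points, against RNA log2 fold change with its standard error, for 23 members coloured by subfamily. Pcdhb2 at 2.05 is the highest point, and Pcdhgc3 and Pcdhgc4 sit near 0 in methylation difference, with log2 fold changes of -0.19 and -0.12.

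Adults differed from P0 controls at few region positions, and the ones that were higher lay at the gamma C end. Of 534 tested, 1 was called lower and 11 higher, against 1.79% and 1.70% of all 704580 positions tested. All 11 lay from 37805254 to 37842894, that is from just before Pcdhgc3 to just past the end of the gamma cluster. Past the end, 7 of 13 tested positions were called, all before the annotated limit of Diaph1, the next gene, which encodes an actin-nucleating formin. Position 37842621 had 2.08%, 5.63% and 1.64% in controls, 0% in all 3 KO samples and 47.9%, 56.9% and 60.9% in adults. Over the 8 positions between the gamma cluster and Diaph1 read in all 9 samples, controls had 2.03%, 4.96% and 0.661%, KO 2.79%, 3.69% and 1.22% and adults 35.7%, 36.4% and 34.3%. Adults stood apart from both P0 groups there. Over 4 positions within Diaph1 adults had 4.28%, 1.88% and 2.38%, within the range of the P0 samples or just under it. Adults were wild type and P0 controls Dnmt1 f/f, so age and genotype differ together and cannot be told apart. No adult RNA was analysed here.

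Among gene starts in adults, 21 members were tested and 1, Pcdhb2, was called lower, against 4.15% lower and 1.68% higher among all starts. The start of Pcdhb2 had 51.7% in adults and 61.8% in controls over 11 positions, 10.1 points lower in adults (adjusted p 0.0222 in the quasi-binomial fit). Over the first 3000 bases, 1 of 28 members was called, Pcdhgc5, higher in adults at 71.0%, 63.9% and 69.9% against 51.0%, 55.2% and 42.6% in controls (adjusted p 0.0258), where 2.24% of all genes were called higher and 5.69% lower.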

How the data were processed

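RNA was measured in 6 and DNA methylation in 9 mouse kidney samples, 3 a group. Per the submitters' processing notes, reads were handled with Trim Galore, Bismark, STAR 2.4.1d and HTSeq 0.6.1 on mm10 (GRCm38). The RNA files the authors deposited hold a raw read count per gene, and lines of unassigned reads were left out (ambiguous reads were 1.35% to 1.75%). The RRBS files the authors deposited list, for each cytosine, its percent methylation with counts of both kinds of call. Strand handling in counting is not given in the sources used here.

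Counts were tested with edgeR 4.0.16 (quasi-likelihood, TMM, its filter on low counts, Benjamini-Hochberg over all genes tested, R 4.3.3). Standard errors come from the same fit. Calls were tested in a quasi-binomial logistic model with dispersion moderated by limma 3.58.1 and not under 1, for positions with at least 10 calls in each sample compared, and for calls summed by window with at least 3 positions. Methylation was called different at an adjusted p under 0.05 with 10 points or more between group means. Gene starts came from RefSeq for GRCm38, with members read toward higher coordinates. Both models were tested on simulated data.

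Members and gene lists were chosen with earlier results of these data known. Named in full are the called members, the member with the highest control count in each subfamily, every gamma C gene, Dnmt1, Taf7, Slc25a2, the 12 members with most positions at the start, and called genes of each list (at most 4 by smallest p). Other members named were chosen after their values were seen. Samples with the same number did not deviate together, so no pairing was used. Alternatives were DESeq2 1.42.0, limma voom, other filters and windows, and leaving out each sample.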

Additional observations from a re-analysis of the deposited data

How the results depend on the processing

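Depth, 3 samples a group and positions sharing fragments limit these results. Members called higher numbered 4, and 8 with DESeq2, 1 with the replicate block and 1 to 6 when leaving out 1 sample. Same-numbered samples had correlations of -0.24, -0.07 and -0.13 in RNA, and no pairing was used. So few pairs cannot settle whether a shared number has a meaning. Positions lower in KO numbered 76, then 49 with at least 20 calls, 29 at 25 points, 145 without overdispersion (4 higher), 50 with the block and 40 to 69 leaving out 1 sample (40 without KO 2). Member starts lower in KO numbered 2, then 0 within 500 bases, 8 over 3000 bases and 1 to 3 leaving out 1 sample. Adult positions were 1 lower and 11 higher, then 0 lower at 25 points, 42 and 33 without overdispersion, 6 higher with at least 20 calls, 0 and 0 with the block, and 0 to 1 lower and 5 to 7 higher leaving out 1 sample. Member starts lower in adults numbered 1, then 0 with at least 5 calls, 0 within 500 bases, 0 over 3000 bases (1 higher) and 0 to 2 leaving out 1 sample. The adult difference of the region mean was -1.50 points weighted by calls, 0.46 over positions with 10 or more calls in the sample itself and -1.65 over the protocadherin stretches, added after seeing the data. The log2 fold change of Pcdhgc4 ran from -0.29 to 0.0072 (without KO 3) leaving out 1 sample, and that of Taf7 from -0.24 (without control 3) to 0.32, with -0.16 under voom. The cause was not tested.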
